A study of Homo sapiens with 8 samples.

Results

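BCL7A, BCL7B and BCL7C are small paralogous subunits of the BAF (SWI/SNF) chromatin remodelling complexes. SMARCB1, SMARCC1, SMARCC2, SMARCD1, SMARCD2 and SMARCE1 belong to the core on which the canonical BAF complexes are built, and ACTL6A is a subunit of their ATPase module. These 10 genes, of 63677 in the count tables, were taken by symbol through the name column of the authors' deposited comparison tables. Each symbol matched 1 identifier except BCL7B, which matched 2, and the one with reads was used because the other had 0 counts in all 8 libraries. The RNA came from 2 established human lines of T-cell acute lymphoblastic leukaemia, T-ALL for short. MOLT-4 cells were given 100 nM ACBI-1 for 8 h or DMSO for the same time, and so were DND-41 cells, which made 4 groups of 2 libraries. ACBI-1 is a bifunctional degrader that recruits the VHL ubiquitin ligase to SMARCA2, SMARCA4 and PBRM1, and DMSO is its solvent. Its effect on these proteins is not read by RNA counts. The labels name no engineered allele, and all groups grew in RPMI-1640 medium with serum. They do not say that the libraries of a group were separate cultures, and the p-values below may therefore reflect technical spread alone.

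BAF complexes slide and evict nucleosomes with the energy of ATP, through SMARCA4 or SMARCA2. Assembly of the canonical complexes begins with a dimer of SMARCC1 and SMARCC2, which SMARCD, SMARCE1 and SMARCB1 subunits join to form the core module. The ATPase module, with ACTL6A, actin, SS18 and a BCL7 protein, is added to it, and the finished complexes keep chromatin open at enhancers and promoters of developing T cells.

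In MOLT-4, ACBI-1 lowered BCL7A to 0.586 of its DMSO level and BCL7C to 0.695, while BCL7B was 1.28-fold higher. In DND-41, BCL7A fell to 0.766 of its DMSO level and BCL7C to 0.707, and BCL7B was not called. SMARCC2 rose in both lines, SMARCC1 and SMARCE1 rose in DND-41, SMARCD2 fell in MOLT-4, and SMARCB1, SMARCD1 and ACTL6A passed the test in neither line. The calls of SMARCD2 in MOLT-4 and of SMARCC2 and SMARCC1 in DND-41 were lost when 1 library or another was left out. The ACBI-1 effect on BCL7A was more negative in MOLT-4 than in DND-41, and that on BCL7B was more positive, though that difference in BCL7B was lost under several alternatives.

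The starts of the 3 BCL7 genes are shown because these paralogs moved in opposite directions in MOLT-4. RefSeq promoter windows of 300 bases, 250 before and 50 after an annotated start on GRCh38.p14, were found for 7 of the 10 members, SMARCC1, SMARCC2 and ACTL6A not being among them. BCL7A is at chr12:122021634-122021933 on the + strand. BCL7B has 2 windows on the - strand, an upstream one at chr7:73557641-73557940 and a downstream one at chr7:73557187-73557486. BCL7C is at chr16:30894028-30894327 on the - strand. Each is printed 5' to 3' on the gene's strand. Capitals mark the GC box GGGCGG, the motif CCAAT, called a CCAAT box, and the sequence CCGGAA that ETS factors bind, each on either strand.
BCL7A: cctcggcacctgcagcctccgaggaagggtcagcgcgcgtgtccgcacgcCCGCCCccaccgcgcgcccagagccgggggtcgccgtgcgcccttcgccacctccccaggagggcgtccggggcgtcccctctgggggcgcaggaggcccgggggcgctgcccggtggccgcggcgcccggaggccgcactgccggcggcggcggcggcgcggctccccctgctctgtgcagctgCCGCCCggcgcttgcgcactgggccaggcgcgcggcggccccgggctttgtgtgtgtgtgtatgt
BCL7B upstream start: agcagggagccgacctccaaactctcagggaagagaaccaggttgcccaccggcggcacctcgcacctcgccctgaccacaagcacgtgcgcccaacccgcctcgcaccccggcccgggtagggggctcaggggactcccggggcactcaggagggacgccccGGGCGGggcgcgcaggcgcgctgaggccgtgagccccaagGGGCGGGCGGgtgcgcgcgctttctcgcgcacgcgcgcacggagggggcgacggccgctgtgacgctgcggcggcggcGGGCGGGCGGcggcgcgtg
BCL7B downstream start: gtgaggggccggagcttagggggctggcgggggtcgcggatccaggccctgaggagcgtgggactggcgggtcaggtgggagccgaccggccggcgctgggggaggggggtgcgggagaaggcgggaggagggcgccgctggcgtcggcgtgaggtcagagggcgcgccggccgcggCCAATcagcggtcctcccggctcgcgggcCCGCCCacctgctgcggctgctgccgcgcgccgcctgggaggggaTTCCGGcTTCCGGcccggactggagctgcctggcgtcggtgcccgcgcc
BCL7C: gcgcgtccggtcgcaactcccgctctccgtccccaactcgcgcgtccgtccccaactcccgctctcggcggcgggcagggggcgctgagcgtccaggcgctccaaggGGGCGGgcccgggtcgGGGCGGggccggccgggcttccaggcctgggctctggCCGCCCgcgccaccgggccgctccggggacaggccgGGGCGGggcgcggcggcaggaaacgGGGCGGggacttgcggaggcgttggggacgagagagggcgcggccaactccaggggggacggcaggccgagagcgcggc
The 4 windows were 80.3%, 77.7%, 79.0% and 80.3% G or C in this order. Of all windows in the RefSeq table, 97.7%, 94.65%, 96.3% and 97.7% had a lower share of G or C. GC box matches below were not set against windows of like G or C content. BCL7A held 2 GC boxes, the upstream BCL7B window 5, some of which overlap each other, the downstream BCL7B window 1, and BCL7C 5. Of the printed windows, the downstream one of BCL7B alone held a CCAAT box, 1 copy, and ETS cores, 2 copies. A GC box was found in 45.0% of the 35116 windows of the RefSeq table and in 9 of the 10 windows of the members, some of which have more than 1 window. For CCAAT the share was 34.6%, with 3 member windows, and for the ETS core 17.2%, with 4. Further motifs were searched on both strands and are not in capitals. The E-box CACGTG was in 7.26% of windows and 1 member window, the RUNX core TGTGGT in 13.1% and 1, and the RBPJ core TGGGAA in 24.0% and 3. The CRE TGACGTCA, in 1.85% of windows, and the TATA box TATAAA, in 11.5%, were in 0 member windows. A match describes the letters in a window and is not a bound site.

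Depth was even, with 19860759 to 20239888 counts per library. Scaled by these totals, 3 counts equalled 0.148 to 0.151 CPM. Elsewhere CPM means counts scaled by effective library size, except for the SMARCE1 pseudogenes, which were scaled by library totals. Each member had 382 to 10587 counts in every library. All 8 T-lineage markers reached 1 CPM in at least 1 library. Of these, CD5 was at 67.3 and 69.8 CPM with ACBI-1 against 174.5 and 185 CPM with DMSO in MOLT-4. In DND-41 CD5 was at only 0.503 to 2.14 CPM. TAL1 was at 41.3 to 56.1 CPM in MOLT-4 and 0 in DND-41. TLX3 was at 88.4 and 92.8 CPM with ACBI-1 against 300.4 and 319 CPM with DMSO in DND-41, and at most 0.0529 CPM in MOLT-4. Of the 5 B-lineage markers, CD79A stood at 935 and 979 CPM with ACBI-1 against 1568 and 1586 CPM with DMSO in DND-41. MS4A1 and PAX5 were at 0. Myeloid and erythroid markers were below 1 CPM in every library. COL1A1, a collagen gene of stromal cells, was at 0 and 11.4 CPM with ACBI-1 and 2.20 and 55.4 CPM with DMSO in replicates 1 and 2 of MOLT-4, and the summed stromal and epithelial list was at 0.741 and 15.4 CPM against 4.51 and 71.7 CPM. Both MOLT-4 replicate 2 libraries thus stood apart from replicate 1, and MOLT-4 results are also given without them. In DND-41 the same sum was at 8.09 to 11.1 CPM with ACBI-1 and 50.2 to 52.6 CPM with DMSO. Most of it there was PDGFRB, at 8.04 and 10.9 CPM against 50.1 and 52.4 CPM. PDGFRB was at most 1.84 CPM in MOLT-4, and COL1A1 at most 0.0966 CPM in DND-41. Mitochondrially encoded genes took 19.2% and 22.3% of counts with ACBI-1 and 17.0% and 12.8% with DMSO in MOLT-4, and 14.6% and 10.95% against 11.5% and 12.5% in DND-41. The part of stromal or mitochondrially encoded genes in the results below was not tested beyond leaving out the MOLT-4 replicate 2 libraries or the mitochondrially encoded genes. In bulk RNA, fewer cells of a type and less RNA per cell cannot be told apart.

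**Figure D1:**
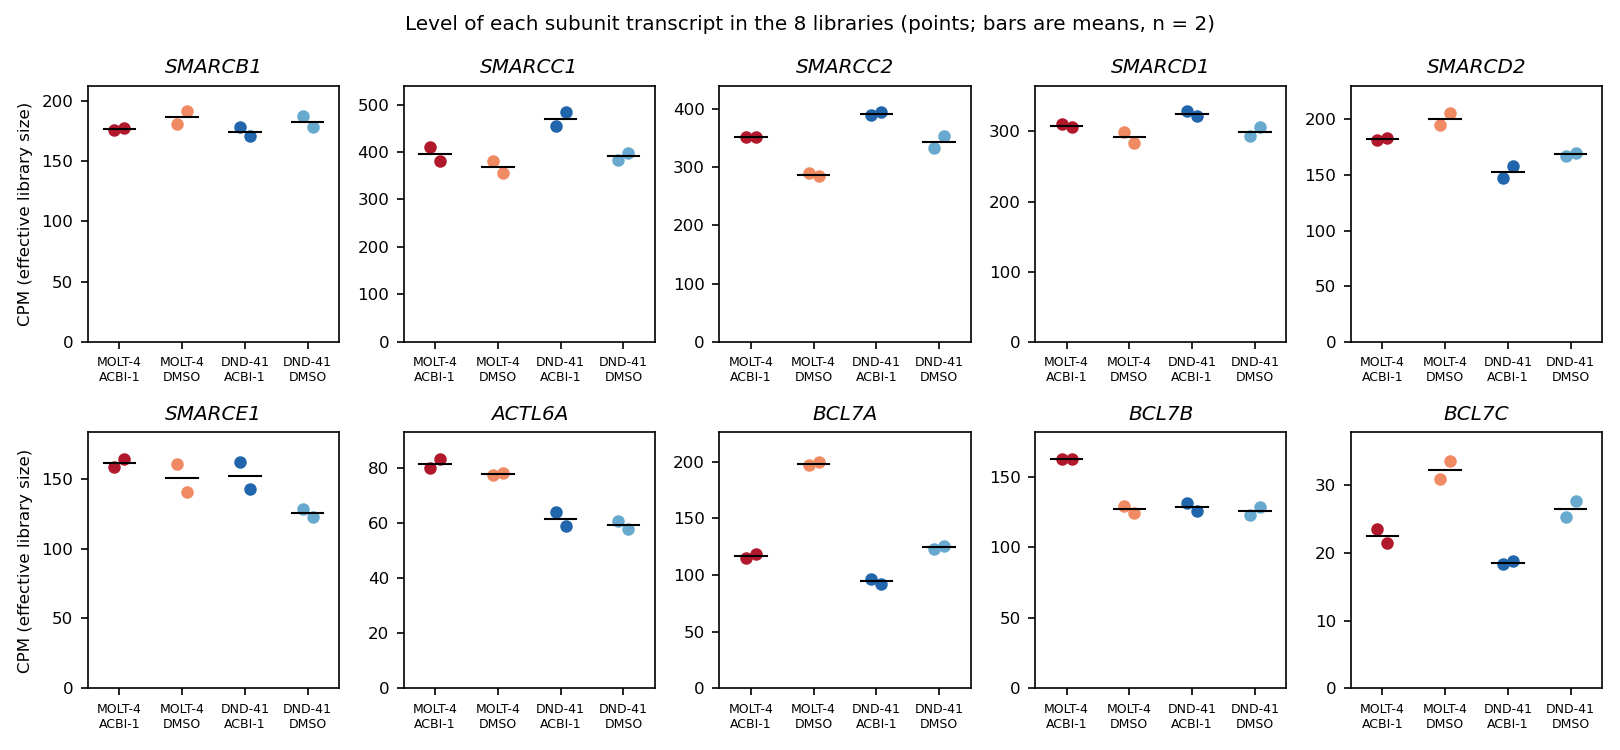
Level of each of the 10 subunit transcripts in CPM (y axis, from 0, own scale for each gene) in the 4 groups (x axis); points are single libraries and bars are means of 2. BCL7A is at 115 and 118 CPM with ACBI-1 against 197 and 199.9 CPM with DMSO in MOLT-4, while SMARCB1 stays between 170.4 and 192 CPM in all 8 libraries.

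The tests ask which members differ between ACBI-1 and DMSO within a line. They used edgeR's quasi-likelihood F test on the counts of that line, 2 libraries against 2, with Benjamini-Hochberg adjustment over all genes tested and a threshold of 0.05. Each log2 fold change sets ACBI-1 over DMSO, and its error is the SE. In MOLT-4, 2 of the 10 members rose and 3 fell, where 20.7% of 14239 genes tested rose and 24.4% fell. In DND-41, 3 rose and 2 fell, where 20.0% of 14008 genes rose and 23.2% fell. The share of members called, 5 of 10 in each line, is near these backgrounds of 45.1% and 43.2%. The median log2 fold change of the members was 0.07 in MOLT-4 and 0.06 in DND-41, against 0.0009 and 0.01 for all genes tested. Their median absolute log2 fold change was 0.12 in MOLT-4, against 0.25 for all genes, and 0.17 in DND-41, against 0.25. The genes set against the members were not matched to them in level. In CPM, at least 77.3% of genes tested over the 8 libraries lay below each member other than BCL7C. With a minimum change of 1.2-fold built into the test, BCL7A and BCL7C were called in each line and no other member, where 23.9% of genes were called in MOLT-4 and 21.8% in DND-41.

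BCL7A (ENSG00000110987), named for its place at a translocation in a B-cell lymphoma and since known as a BAF subunit, gave the largest absolute log2 fold change of the members in MOLT-4. It was at 115 and 118 CPM with ACBI-1 against 197 and 199.9 CPM with DMSO in MOLT-4. In DND-41 it was at 96.5 and 92.4 CPM with ACBI-1 against 123 and 126 CPM with DMSO. Every treated library lay below every DMSO library of its line, and the MOLT-4 DMSO libraries stood above the other 6. BCL7A fell in MOLT-4, with a log2 fold change of -0.77 ± 0.05 (95% interval -0.88 to -0.66, adjusted p = 3.669e-10), and 15.9% of genes tested there had a larger absolute change. It fell in DND-41 by 0.38 ± 0.06 on the log2 scale (interval -0.51 to -0.26, adjusted p = 1.174e-04), and 34.3% of genes tested had a larger absolute change. Leaving out 1 library at a time gave -0.79 to -0.75 in MOLT-4 and -0.42 to -0.35 in DND-41. With replicate 2 of both MOLT-4 groups dropped, the remaining 6 libraries fitted together gave -0.79 in MOLT-4 (adjusted p = 1.44e-05).

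BCL7C (ENSG00000099385), the third paralog, was the lowest member in CPM in every library. It was at 23.5 and 21.4 CPM with ACBI-1 against 30.9 and 33.5 CPM with DMSO in MOLT-4. In DND-41 it was at 18.3 and 18.8 CPM with ACBI-1 against 25.3 and 27.6 CPM with DMSO. The treated libraries lay below the DMSO libraries in both lines without overlap. BCL7C fell by 0.52 ± 0.08 on the log2 scale in MOLT-4 (interval -0.69 to -0.36, adjusted p = 2.014e-05). It fell by 0.50 ± 0.09 in DND-41 (interval -0.68 to -0.32, adjusted p = 2.569e-04). With replicate 2 of both MOLT-4 groups dropped the MOLT-4 value was -0.41 (adjusted p = 0.0216). The antisense gene MIR762HG, which shares 499 exon bases with BCL7C in the annotation used here, had 5.21% of its count.

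BCL7B (ENSG00000106635), which lies in the chromosome region deleted in Williams syndrome, moved the other way. It was at 163 CPM in both MOLT-4 libraries with ACBI-1, against 129 and 124.7 CPM with DMSO. In DND-41 it was at 132 and 126 CPM with ACBI-1 against 123 and 128 CPM with DMSO. The MOLT-4 groups did not overlap and the DND-41 groups did. BCL7B rose in MOLT-4, with a log2 fold change of 0.36 ± 0.05 (interval 0.25 to 0.46, adjusted p = 1.262e-05). In DND-41 the value was 0.05 ± 0.06 (interval -0.08 to 0.18, adjusted p = 0.532), so a rise of the MOLT-4 size lies outside its interval. With replicate 2 of both MOLT-4 groups dropped the MOLT-4 value was 0.32 (adjusted p = 0.0168), and with the 1.2-fold minimum the call ended (adjusted p = 0.0514).

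Taken per kb of exon, BCL7A made up 25.8% ± 0.50 of the summed BCL7 transcripts with ACBI-1 and 41.2% ± 0.54 with DMSO in MOLT-4 (SD, n = 2 libraries each). In DND-41 its share was 26.2% ± 0.06 with ACBI-1 and 31.4% ± 0.41 with DMSO. The BCL7B share was 66.8% ± 0.0055 with ACBI-1 and 48.8% ± 1.14 with DMSO in MOLT-4, and 66.2% ± 0.30 against 58.7% ± 0.09 in DND-41. Shares of the 2 lines thus lay close together with ACBI-1 and apart with DMSO. Which of BCL7A and BCL7B was the larger with DMSO in MOLT-4 turned with the length used. BCL7B was there at 40.3% and BCL7A at 48.1% per kb of the principal transcript, and at 35.5% and 55.5% with no division by length. In the means of the other 3 groups BCL7B stayed above BCL7A by each of these lengths, with 45.4% and 45.0% for DND-41 with DMSO and no length. No p is given for shares, since 2 libraries against 2 cannot reach p below 0.05 in an exact permutation test. The plain count ratio, which needs no gene length, showed the same order of groups within each line. The BCL7A count was 0.706 and 0.726 of the BCL7B count with ACBI-1 against 1.52 and 1.60 with DMSO in MOLT-4. In DND-41 it was 0.732 and 0.735 with ACBI-1 against 1.002 and 0.981 with DMSO. Per kb of total exon length, the summed level of the family was 68.8 and 68.9 CPM with ACBI-1 against 73.6 and 73.3 with DMSO in MOLT-4. In DND-41 it was 56.1 and 53.9 against 59.1 and 61.7. Per kb of the principal transcript the sums were 140.5 and 140.7 against 159.6 and 159.8 in MOLT-4, and 114.6 and 110.3 against 124.3 and 129.7 in DND-41. By both lengths the sum was lower with ACBI-1 in both lines without overlap.

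**Figure D2:**
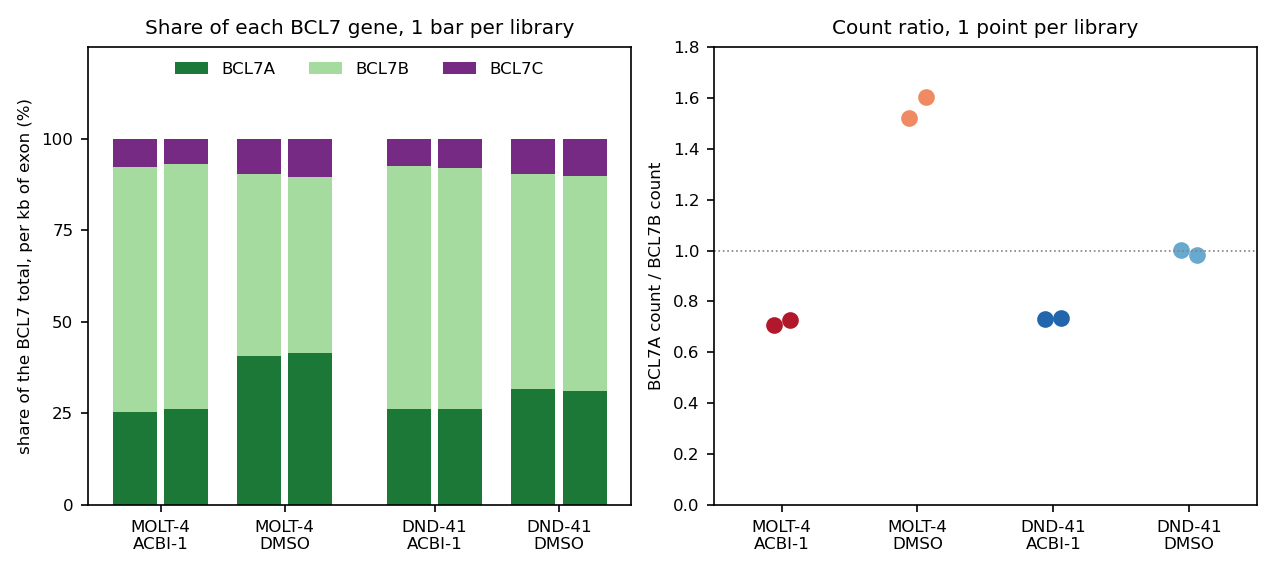
Left, share of BCL7A, BCL7B and BCL7C in their summed level per kb of total exon length (y axis, percent), 1 bar per library in the 4 groups; right, BCL7A count over BCL7B count (y axis, no unit), 1 point per library, with a dotted line at 1. The ratio lies between 0.706 and 0.735 in the 4 ACBI-1 libraries of both lines, and at 1.52 and 1.60 in the MOLT-4 DMSO libraries.

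SMARCC1 (ENSG00000173473) and SMARCC2 (ENSG00000139613) encode the paired scaffold proteins that begin assembly. SMARCC2 was at 351 and 352 CPM with ACBI-1 against 290.4 and 284 CPM with DMSO in MOLT-4, and at 389 and 394 CPM against 332 and 352 CPM in DND-41. SMARCC1 was at 411 and 382 CPM against 381 and 357 CPM in MOLT-4, and at 455 and 484 CPM against 383 and 399 CPM in DND-41. In all 4 of these comparisons both treated libraries lay above both DMSO libraries, by little for SMARCC1 in MOLT-4. SMARCC2 rose in MOLT-4 (0.29 ± 0.05, interval 0.17 to 0.40, adjusted p = 2.127e-04) and in DND-41 (0.21 ± 0.06, interval 0.08 to 0.33, adjusted p = 0.0109). The DND-41 call of SMARCC2 was lost when DMSO replicate 1 was left out (0.16, adjusted p = 0.304) and when DMSO replicate 2 was (0.25, adjusted p = 0.0739), and the MOLT-4 call held without both replicate 2 libraries (0.26, adjusted p = 0.0411). SMARCC1 rose in DND-41 (0.28 ± 0.06, interval 0.15 to 0.41, adjusted p = 0.00177), and was not called there once DMSO replicate 1 was left out (0.24, adjusted p = 0.0893). In MOLT-4 SMARCC1 was at 0.10 ± 0.06 (interval -0.02 to 0.23, adjusted p = 0.180), and at 0.16 without DMSO replicate 1. MYL6 lies on the opposite strand of SMARCC2 with 514 shared exon bases and had 47.6% of its count. The library kit marks strand per the labels, and the strand setting of the counting is not given in the sources used here. SMARCC2 was 44.2% ± 1.34 of the SMARCC pair per kb of exon with ACBI-1 and 41.0% ± 0.75 with DMSO in MOLT-4, without overlap. The DND-41 share was 42.7% ± 0.84 with ACBI-1 and 43.9% ± 0.33 with DMSO (SD, n = 2 each), the opposite order, also without overlap.

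SMARCD1 (ENSG00000066117) and SMARCD2 (ENSG00000108604) encode alternative subunits of 1 position in the core, SMARCD2 being the one needed for granulocyte maturation. SMARCD2 was at 181 and 184 CPM with ACBI-1 against 195 and 206 CPM with DMSO in MOLT-4, and at 147 and 158 CPM against 167 and 169.9 CPM in DND-41. SMARCD1 was at 311 and 306 CPM against 299 and 284 CPM in MOLT-4, and at 329 and 321 CPM against 293 and 306 CPM in DND-41. SMARCD2 was thus lower and SMARCD1 higher with ACBI-1 in both lines without overlap, and 1 of these 4 differences passed the threshold. SMARCD2 fell in MOLT-4 (-0.14 ± 0.05, interval -0.25 to -0.03, adjusted p = 0.0361). This call was lost with DESeq2 (adjusted p = 0.103), with both lines fitted together (adjusted p = 0.0594) and with no filter (adjusted p = 0.0851). It was also lost without ACBI-1 replicate 1 (-0.13, adjusted p = 0.197), without ACBI-1 replicate 2 (-0.15, adjusted p = 0.123), without the second DMSO library (-0.10, adjusted p = 0.245), and with replicate 2 of both groups dropped (adjusted p = 0.37). In DND-41 SMARCD2 was at -0.13 ± 0.06 (interval -0.26 to -0.0026, adjusted p = 0.0936) and SMARCD1 at 0.13 ± 0.06 (interval 0.01 to 0.26, adjusted p = 0.0768). Without ACBI-1 replicate 2 the DND-41 values were -0.18 for SMARCD2 and 0.15 for SMARCD1. SMARCD1 in MOLT-4 was at 0.08 ± 0.05 (interval -0.04 to 0.19, adjusted p = 0.265). Of the SMARCD transcripts per kb of exon, SMARCD2 made up 44.0% ± 0.50 with ACBI-1 and 47.6% ± 1.74 with DMSO in MOLT-4, and 39.0% ± 1.59 against 43.2% ± 0.44 in DND-41. SMARCD3, the third paralog, made up 0.558% to 2.19% in the group means.

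SMARCE1 (ENSG00000073584) encodes the core subunit with an HMG box, a DNA-binding fold. It was at 159 and 164 CPM with ACBI-1 against 161 and 141 CPM with DMSO in MOLT-4, where the groups overlapped. The DND-41 libraries were at 162 and 143 CPM against 128 and 123 CPM, without overlap. It rose in DND-41 (0.29 ± 0.07, interval 0.15 to 0.44, adjusted p = 0.00282), while the MOLT-4 value was 0.10 ± 0.06 (interval -0.03 to 0.22, adjusted p = 0.209). The MOLT-4 value was 0.20 without DMSO replicate 1 and -0.03 without both replicate 2 libraries. The 5 SMARCE1 pseudogenes counted reached at most 0.151 CPM, here scaled by library totals.

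SMARCB1 (ENSG00000099956), the core subunit that contacts the nucleosome and is lost in rhabdoid tumours, was at 176 and 177 CPM with ACBI-1 against 181 and 192 CPM with DMSO in MOLT-4. In DND-41 it was at 179 and 170.4 CPM with ACBI-1 against 187 and 178 CPM with DMSO. Its log2 fold change was -0.08 ± 0.05 in MOLT-4 (interval -0.19 to 0.03, adjusted p = 0.219) and -0.05 ± 0.06 in DND-41 (interval -0.18 to 0.07, adjusted p = 0.506). ACTL6A (ENSG00000136518), an actin-related protein of the ATPase module that also belongs to the INO80 and TIP60 complexes, was at 79.9 and 83.1 CPM against 77.3 and 78.3 CPM in MOLT-4, and at 64.1 and 58.8 CPM against 60.7 and 57.7 CPM in DND-41. Its log2 fold change was 0.06 ± 0.06 in MOLT-4 (interval -0.06 to 0.18, adjusted p = 0.392) and 0.07 ± 0.07 in DND-41 (interval -0.08 to 0.21, adjusted p = 0.471). All 4 of these intervals include 0. MRPL47, on the opposite strand of ACTL6A, had 41.6% of its count. DERL3, on the opposite strand of SMARCB1 with 2923 shared exon bases, had 6.10% of the SMARCB1 count. Counting groups whose libraries did not overlap, 9 of 10 members were separated in MOLT-4 and 7 in DND-41, where 71.8% and 69.6% of genes tested were.

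**Figure D3:**
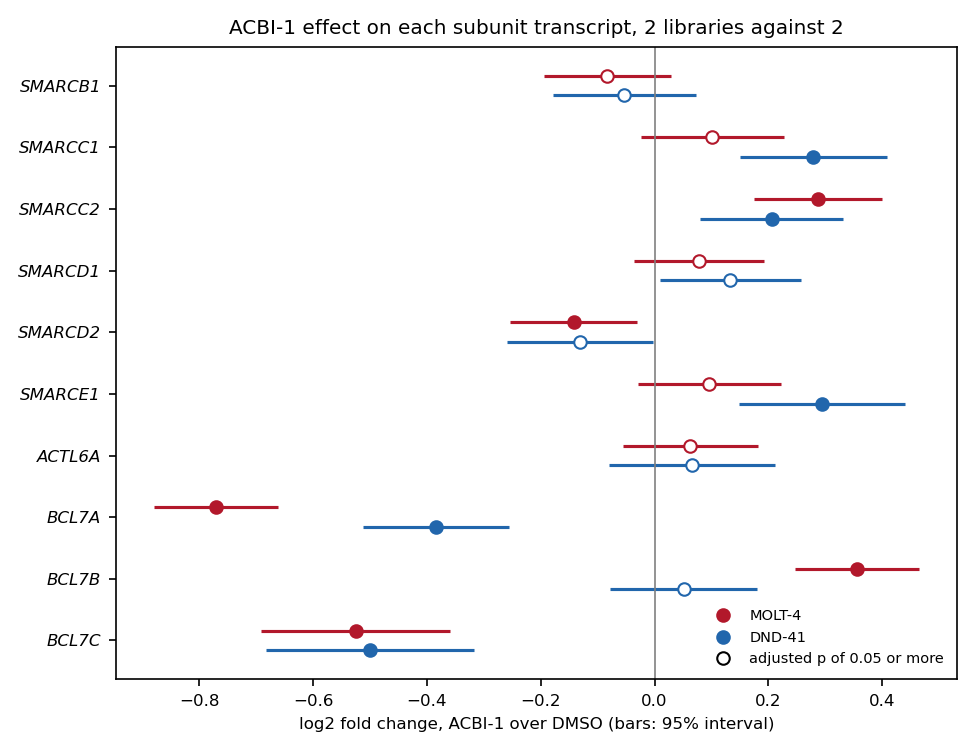
Log2 fold change of ACBI-1 over DMSO (x axis) for the 10 members (y axis) in MOLT-4 and DND-41, with 95% intervals as bars and open points for an adjusted p of 0.05 or more. BCL7A lies at -0.77 in MOLT-4 and -0.38 in DND-41, BCL7B at 0.36 and 0.05, and BCL7C at -0.52 and -0.50.

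Whether an effect differed between the lines was tested over all 8 libraries as the ACBI-1 effect in MOLT-4 minus that in DND-41. Of the 10 members, 1 was higher and 1 lower, where 13.3% of 15498 genes were called, 7.18% higher and 6.17% lower. BCL7A differed by -0.37 ± 0.08 on the log2 scale (interval -0.53 to -0.21, adjusted p = 0.00294), and each library left out in turn gave -0.40 to -0.33 with the call kept. BCL7B differed by 0.32 ± 0.08 (interval 0.16 to 0.49, adjusted p = 0.00908). The BCL7B call ended without DND-41 DMSO replicate 2 (0.30, adjusted p = 0.0668), without MOLT-4 DMSO replicate 2 (0.27, adjusted p = 0.0698), with replicate 2 of both MOLT-4 groups dropped (0.27, adjusted p = 0.187), and when libraries were scaled by their totals (0.20, adjusted p = 0.208). Neither call held with the 1.2-fold minimum, under which 0 members and 5.61% of genes were called. BCL7C differed by -0.0074 ± 0.12 (interval -0.26 to 0.25). The calls of SMARCC1 and SMARCE1 in DND-41 did not carry over to a difference, with -0.16 ± 0.09 (interval -0.34 to 0.02, adjusted p = 0.267) and -0.18 ± 0.10 (interval -0.39 to 0.03, adjusted p = 0.278). SMARCC2 differed by 0.10 ± 0.08 (interval -0.06 to 0.26), and SMARCB1, SMARCD1, SMARCD2 and ACTL6A lay between -0.04 and 0.01.

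With DMSO alone, MOLT-4 over DND-41, 5 members were higher and 1 lower, 6 of 10, where 63.8% of genes were called, 33.2% higher and 30.7% lower. This comparison shares its DMSO libraries with those above. BCL7A was higher in MOLT-4 by 0.67 ± 0.05 on the log2 scale (197 and 199.9 CPM in MOLT-4, 123 and 126 CPM in DND-41, adjusted p = 2.378e-09). ACTL6A was higher by 0.39 ± 0.06 (adjusted p = 1.828e-05), SMARCD2 by 0.25 ± 0.06 (adjusted p = 6.996e-04), SMARCE1 by 0.26 ± 0.07 (adjusted p = 0.00298) and BCL7C by 0.29 ± 0.08 (adjusted p = 0.0054). SMARCC2 was lower in MOLT-4, at -0.25 ± 0.06 (adjusted p = 5.192e-04). With the 1.2-fold minimum BCL7A and ACTL6A were called, where 46.0% of genes were. Groups did not overlap for 7 of 10 members, where 82.0% of genes were separated. The BCL7C call ended without DND-41 DMSO replicate 1 (0.22, adjusted p = 0.0848) and with replicate 2 of both MOLT-4 groups dropped (adjusted p = 0.0545), and the SMARCE1 call without MOLT-4 DMSO replicate 1 (0.16, adjusted p = 0.0853). When libraries were scaled by their totals, the calls of SMARCD2 (0.15, adjusted p = 0.0954), SMARCE1 (0.16, adjusted p = 0.064) and BCL7C (0.18, adjusted p = 0.11) ended and SMARCC1 was called lower (-0.19, adjusted p = 0.0397). SMARCB1, SMARCC1, SMARCD1 and BCL7B lay between -0.08 and 0.03 and were not called. Line and anything else that differed between the cultures cannot be told apart.

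Levels of different genes were compared as CPM per kb of the longest principal transcript, a length chosen after the data were seen because total exon lengths of SMARCB1 (16.5 kb) and SMARCE1 (18.7 kb) far exceed their transcripts (5.21 and 6.196 kb). In MOLT-4 with ACBI-1, SMARCC2 was highest at 86.2 ± 0.19 CPM per kb, followed by SMARCD1 at 84.3 ± 0.91 and BCL7B at 82.5 ± 0.10, and BCL7A was sixth at 45.2 ± 0.94 (SD, n = 2). In MOLT-4 with DMSO, SMARCD1 was highest at 79.6 ± 2.93, BCL7A second at 76.9 ± 0.80, and BCL7B stood at 64.3 ± 1.68. No neighbours in either MOLT-4 order overlapped. In DND-41, SMARCC2 and SMARCD1 led with ACBI-1, at 96.0 ± 0.85 and 88.9 ± 1.51 CPM per kb, and with DMSO at 84.0 ± 3.48 and 81.9 ± 2.47, where they overlapped. BCL7A was sixth in DND-41 in both groups, at 36.6 ± 1.13 with ACBI-1 and 48.2 ± 0.83 with DMSO. ACTL6A overlapped SMARCB1 there with ACBI-1, and SMARCD2 overlapped BCL7B and SMARCC1 with DMSO. BCL7C was last in all 4 groups, at 12.9 ± 0.85 and 18.5 ± 1.06 in MOLT-4 and 10.6 ± 0.20 and 15.2 ± 0.95 in DND-41, by either length. With total exon length SMARCD1 was highest in all 4 groups. SMARCC2 then held rank 5 of 10 in both MOLT-4 groups, and in DND-41 rank 3 with ACBI-1 and 4 with DMSO, so its lead rests on the length chosen. BCL7A was seventh with ACBI-1 and sixth with DMSO in both lines by that length. In CPM, 54.2% to 64.4% of genes tested lay below BCL7C, depending on the group, and 97.8% to 98.6% below SMARCC1.

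The 4 genes whose pattern over the 8 libraries was most like that of BCL7A were ZNF777, TPM4, ERCC1 and DCAF5, out of 8911 candidates that averaged at least 5 CPM. Likeness was the root mean square distance between log2(CPM + 0.5) values centred over the 8 libraries, and was 0.0575, 0.0576, 0.0685 and 0.0773 in this order. ZNF777, a zinc finger gene, was at 50.3 ± 1.38 CPM with ACBI-1 and 83.4 ± 2.52 with DMSO in MOLT-4, and at 38.4 ± 1.26 and 53.6 ± 0.09 in DND-41. TPM4, a tropomyosin gene, was at 251 ± 10.2 and 401 ± 12.8 CPM in MOLT-4, and at 192 ± 14.7 and 252 ± 8.22 in DND-41. ERCC1, a DNA repair gene, and DCAF5, a ubiquitin ligase adaptor gene, were likewise lower with ACBI-1 in both lines, and highest with DMSO in MOLT-4. These 8 points are 4 groups of 2 libraries, so the likeness is a description.

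Of the 21 other BAF subunits, 20 were tested in each line, and ACTL6B, the neuronal paralog of ACTL6A, was not. In MOLT-4, 3 rose and 9 fell, where 20.7% of all genes tested rose and 24.4% fell, and their median log2 fold change was -0.15 against 0.0009 for all genes. In DND-41, 5 rose and 6 fell, where 20.0% and 23.2% did, with a median of 0.04 against 0.01. Among the degrader's targets, SMARCA4 rose in MOLT-4 (0.19 ± 0.06, adjusted p = 0.0187) and DND-41 (0.34 ± 0.06, adjusted p = 2.844e-04). The MOLT-4 call of SMARCA4 was lost when either ACBI-1 library was left out (adjusted p = 0.0575 without replicate 1 and 0.0663 without replicate 2) when replicate 2 of both groups was (adjusted p = 0.0788), and when libraries were scaled by their totals (0.11, adjusted p = 0.398). PBRM1 fell in MOLT-4 (-0.16 ± 0.06, adjusted p = 0.0288), but was not called once ACBI-1 replicate 2 (-0.08, adjusted p = 0.461), the second DMSO library (-0.14, adjusted p = 0.0605) or both of them (-0.08, adjusted p = 0.616) were left out. The PBRM1 call was also lost with DESeq2 (adjusted p = 0.0929), with both lines fitted together (adjusted p = 0.0675) and with no filter (adjusted p = 0.0502). In DND-41 PBRM1 was at 0.06 ± 0.07 (adjusted p = 0.485), and at 0.15 without ACBI-1 replicate 1. SMARCA2 fell in DND-41 (-0.19 ± 0.07, adjusted p = 0.0433), and was not called once ACBI-1 replicate 1 was left out (-0.13, adjusted p = 0.138) or DMSO replicate 2 was (-0.13, adjusted p = 0.389). Its call was lost as well with DESeq2 (adjusted p = 0.135), with scaling by library totals (adjusted p = 0.136) and with no filter (adjusted p = 0.0874). SMARCA2 was at 0.14 ± 0.08 in MOLT-4 (adjusted p = 0.152).

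GLTSCR1L, a subunit of the non-canonical BAF complex, was the largest rise among the other subunits in MOLT-4 (1.55 ± 0.11, adjusted p = 9.974e-10) and DND-41 (1.22 ± 0.07, adjusted p = 3.365e-09). DPF3, a subunit with histone-reading PHD fingers, was the largest fall in MOLT-4 (-1.69 ± 0.15, adjusted p = 1.463e-08) and DND-41 (-1.58 ± 0.21, adjusted p = 2.305e-05). Its level was low, at 3.97 and 3.85 CPM with ACBI-1 against 14.1 and 11.2 CPM with DMSO in MOLT-4. In DND-41 DPF3 was at 1.82 and 1.60 CPM against 5.50 and 4.78 CPM. BCL11B, a transcription factor of T-cell commitment that also binds BAF, fell by 0.89 ± 0.06 in MOLT-4 and by 1.12 ± 0.07 in DND-41. Each of these 3 exceeded every member in absolute log2 fold change in its line. ARID1A, the DNA-binding subunit of canonical BAF, was called higher in both lines, at 0.38 ± 0.06 in MOLT-4 and 0.33 ± 0.06 in DND-41. ACTB, the actin of the ATPase module, was called lower in both, at -0.51 ± 0.09 in MOLT-4 and -0.45 ± 0.08 in DND-41. GLTSCR1, the paralog of GLTSCR1L, rose in DND-41 (0.33 ± 0.07, adjusted p = 9.88e-04) and was called lower in MOLT-4 (-0.17 ± 0.06, adjusted p = 0.0321). SMARCD3 was called lower in DND-41 (-0.71 ± 0.17, adjusted p = 0.00426) and MOLT-4 (-0.29 ± 0.11, adjusted p = 0.0446). It too was low in DND-41, at 3.06 and 3.02 CPM with ACBI-1 against 5.08 and 4.98 CPM with DMSO. The MOLT-4 calls of GLTSCR1 and SMARCD3 were lost with DESeq2 (adjusted p = 0.148 and 0.254), with no filter (adjusted p = 0.0806 and 0.0618), and without ACBI-1 replicate 1 (adjusted p = 0.0802 and 0.0853), ACBI-1 replicate 2 (adjusted p = 0.26 and 0.0959) or the second DMSO library (adjusted p = 0.134 and 0.38). They were lost too with replicate 2 of both groups dropped (adjusted p = 0.464 and 0.494), and that of SMARCD3 with both lines fitted together (adjusted p = 0.0561). The difference between lines was called for SMARCA2 (0.35 ± 0.11, adjusted p = 0.0346), GLTSCR1 (-0.49 ± 0.09, adjusted p = 8.963e-04) and BCL11A (-0.38 ± 0.09, adjusted p = 0.00664). The SMARCA2 difference ended without any 1 of 6 libraries, these being all but DND-41 ACBI-1 replicate 2 and DMSO replicate 1, with values of 0.29 to 0.40 and adjusted p of 0.0592 to 0.179. It also ended with DESeq2 (adjusted p = 0.106), with scaling by library totals (0.22, adjusted p = 0.288), without mitochondrially encoded genes (adjusted p = 0.0545) and with replicate 2 of both MOLT-4 groups dropped (adjusted p = 0.217). The BCL11A difference ended without DND-41 DMSO replicate 2 (-0.33, adjusted p = 0.0649) or MOLT-4 ACBI-1 replicate 1 (-0.36, adjusted p = 0.0502).

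**Figure D4:**
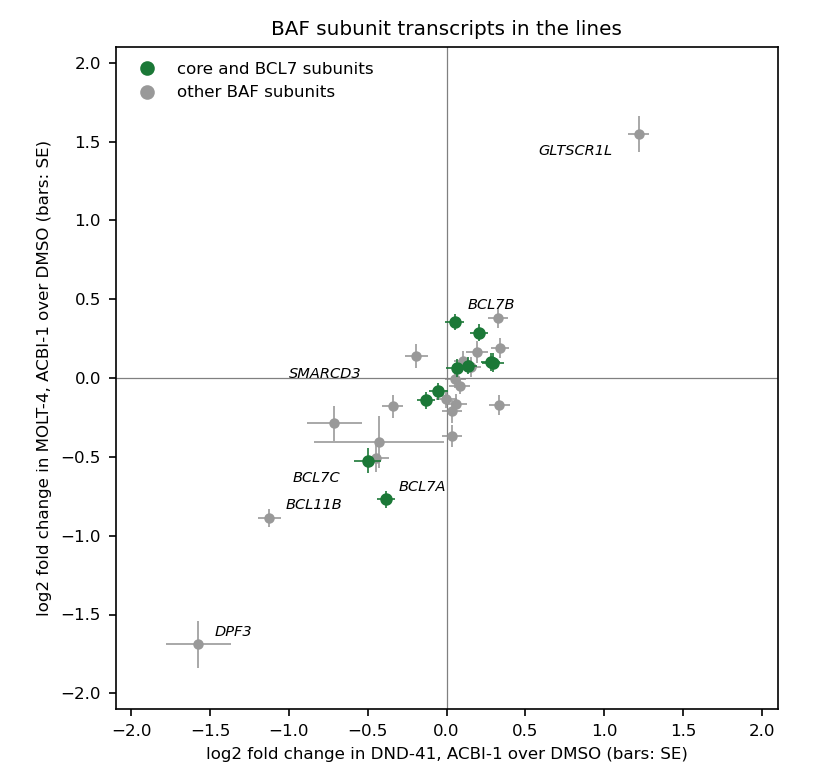
Log2 fold change of ACBI-1 over DMSO in DND-41 (x axis) and MOLT-4 (y axis) for the 10 members (green) and the 20 other BAF subunits tested (grey), with SE as bars. The members lie between -0.77 and 0.36 on both axes, and GLTSCR1L and DPF3 lie farther out, at 1.55 and -1.69 in MOLT-4.

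The authors' deposited table for DND-41 runs ACBI-1 over DMSO, and that for MOLT-4 runs the other way, as their signs show against the deposited counts, although the names of both give DMSO first. In the authors' deposited table for MOLT-4, BCL7A stands at 0.76, which is a fall with ACBI-1, and BCL7B at -0.36, which is a rise. After turning that table, member values in the authors' deposited tables differed from the edgeR values by at most 0.0067. The authors' deposited tables had 4 members called in MOLT-4 and 5 in DND-41 at an adjusted p below 0.05, where 27.5% and 31.3% of their genes with an adjusted p were called. In the authors' deposited table for MOLT-4, SMARCD2 was not called (adjusted p = 0.117).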

How the data were processed

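Strand-specific paired-end libraries with 100 bp reads were made from total RNA, 8 in all and 2 per group, and were grouped by their labels. The submitters' processing notes name STAR 2.5.2a, featureCounts, DESeq2 1.12.4 and the hg19 build, with no order, and the counts deposited by the authors are unnormalized whole numbers per gene. Neither the gene models nor the strand setting of the counting are given in the sources used here. The authors' deposited comparison tables hold log2 fold changes and p-values, and, per the file headers, score columns for a base mean and the tested statistic.

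The 2 count tables were joined by gene identifier. Within each line, edgeR 4.0.16 (R 4.3.3) was run with filterByExpr (minimum count of 10), TMM scaling, quasi-likelihood F test, Benjamini-Hochberg adjustment, threshold 0.05. The difference between lines and the DMSO comparison used all 8 libraries with group means. CPM uses effective library sizes over the 8 libraries, but library totals for the level of 3 counts and for the SMARCE1 pseudogenes. Gene lengths, known for 82.5% of genes, and overlaps came from an annotation of another build, matched by identifier, and promoters from RefSeq by symbol. No coordinates were mixed between builds. The alternatives were DESeq2 1.42.0, other scalings and filters, a threshold of 0.01, a minimum change of 1.2-fold (glmTreat), both lines fitted together, a replicate block, and the omission of each library. A lone library was then assumed to vary like the others. Within a line, a call gained or lost by such an omission therefore rests on the spread in the other group. Code was tested on simulated counts. Python 3.11.15, pandas 2.3.3 and matplotlib 3.10.9 made tables and plots.

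Members and lists were chosen with earlier results of these data known. The text names all 10 members, SMARCA2, SMARCA4, PBRM1, up to 3 rises and 3 falls per line of other BAF subunits at a mean of 1 CPM or more, and the 4 genes most like BCL7A at a mean of 5 CPM or more. SMARCA2, GLTSCR1 and BCL11A are named for the difference between lines as the 3 other subunits called, after their values were seen.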

Additional observations from a re-analysis of the deposited data

Results flagged for a closer look

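The ACBI-1 effect on BCL7A differed between the lines by -0.37 on the log2 scale, MOLT-4 minus DND-41, past the threshold in the test of the difference over all 8 libraries. Both treated libraries were below both DMSO libraries in each line, by more in MOLT-4. The BCL7B effect differed by 0.32 in the same test, with a rise in MOLT-4 and overlapping groups in DND-41. The BCL7B difference was lost without DND-41 DMSO replicate 2 (adjusted p = 0.0668), without MOLT-4 DMSO replicate 2 (adjusted p = 0.0698), with replicate 2 of both MOLT-4 groups dropped (adjusted p = 0.187) and with scaling by library totals (adjusted p = 0.208). With the 1.2-fold minimum neither difference passed (adjusted p = 0.261 for BCL7A and 0.491 for BCL7B).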

How the results depend on the processing

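Of the alternatives, 134 of 150 member results in MOLT-4, 128 of 140 in DND-41, 146 of 180 for the difference between lines and 162 of 180 for the DMSO comparison kept their direction and their side of the threshold. The falls of BCL7A and BCL7C passed the threshold in both lines under every alternative run. No called member turned its direction. The cause of any change below was not tested. With 2 libraries a group, the members' SEs within a line ran from 0.05 to 0.09 on the log2 scale, and single libraries decided several calls near the threshold.

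Genes called higher and lower numbered 2948 and 3477 in MOLT-4, 2807 and 3249 in DND-41, and 1112 and 956 for the difference. DESeq2 gave 1962 higher in MOLT-4 and 1871 in DND-41. A threshold of 0.01 gave 1838 higher in DND-41, and 619 higher and 559 lower for the difference. The 1.2-fold minimum gave 1197 higher and 2201 lower in MOLT-4, 1095 and 1965 in DND-41, and 417 and 453 for the difference. It left 0 members called higher in either line, 0 and 0 for the difference, and 2 higher and 0 lower with DMSO. Scaling by library totals gave 1781 higher in MOLT-4. It gave 499 genes and 0 members higher for the difference, and 2 members higher and 2 lower for the DMSO comparison. That scaling moved the median of all genes by -0.08 in MOLT-4, -0.12 for the difference and -0.10 with DMSO. The higher share of calls was then 31.2% against 45.9% in MOLT-4. For the difference it was 26.1% against 53.8%. Dropping replicate 2 of both MOLT-4 groups gave 1357 higher and 2232 lower in MOLT-4, and 440 and 504 for the difference with 0 members higher. That alternative, the omission of mitochondrially encoded genes and the principal transcript length were chosen after seeing the data.

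Leaving out 1 library gave 1745 to 3044 genes and 1 to 4 members higher in DND-41, and 2 to 4 members higher in MOLT-4. For the difference it gave 699 to 1207 genes higher, 621 to 989 lower and 0 to 1 members higher.

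Some members that were not called changed sign. With library totals, SMARCD1 was at -0.0008 and ACTL6A at -0.0177 in MOLT-4, SMARCC2 at -0.0241, SMARCD2 at -0.119 and ACTL6A at -0.107 for the difference, and SMARCB1 at -0.0727 and BCL7B at -0.0871 with DMSO. For the difference, SMARCD2 was at -0.0022 with DESeq2 and with its size factors, -0.0083 with no filter, -0.0195 with a stricter one and -0.0223 without mitochondrially encoded genes. ACTL6A was at -0.0002, -0.0107 and -0.0139 under the last 3. With replicate 2 of both MOLT-4 groups dropped, SMARCE1 was at -0.0316 in MOLT-4, SMARCB1 at 0.0027, ACTL6A at -0.0276 and BCL7C at 0.095 for the difference, and SMARCD1 at 0.0112 with DMSO. Over single omissions in DND-41, ACTL6A ranged from -0.001 to 0.126, and PBRM1, which is not a member, from -0.0339 to 0.148. For the difference, SMARCB1 ranged from -0.0478 to 0.0278, SMARCD1 from -0.0956 to 0.0063, SMARCD2 from -0.0375 to 0.0617, ACTL6A from -0.0436 to 0.0846 and BCL7C from -0.0692 to 0.0617. With DMSO, BCL7B ranged from -0.0182 to 0.0565, SMARCB1 from -0.0065 to 0.0701 and SMARCD1 from -0.079 to 0.0101.

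Shares moved with the length used, always in the same order of groups within a line. In the order MOLT-4 with ACBI-1 and DMSO, then DND-41 with ACBI-1 and DMSO, BCL7A was 38.6%, 55.5%, 39.1% and 45.0% with no length and 32.1%, 48.1%, 32.5% and 38.0% with the principal transcript. SMARCC2 was 47.0%, 43.8%, 45.5% and 46.7% with no length and 58.1%, 54.9%, 56.6% and 57.8% with the principal transcript. SMARCD2 was 36.4%, 39.7%, 31.7% and 35.6%, and 42.9%, 46.2%, 38.3% and 42.4%.

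The labels number the replicates and do not say whether same-numbered libraries were paired. COL1A1 in MOLT-4 was higher in replicate 2 than in replicate 1 with ACBI-1 (11.4 against 0 CPM) and with DMSO (55.4 against 2.20 CPM). Deviations of same-numbered libraries correlated at 0.176 in DND-41 and 0.051 in MOLT-4 across genes. The replicate block gave 3217 genes higher and 3703 lower in MOLT-4 and 3297 and 3579 in DND-41. It called SMARCD1 (adjusted p = 0.0395) and SMARCD2 (adjusted p = 0.0419) in DND-41 in addition.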
